A study of Mus musculus with 10 samples.

Results

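The Slc25 family comprises the carriers that move metabolites, nucleotides, cofactors and ions across the inner membrane of mitochondria. Members were taken as the protein-coding genes whose mouse symbol starts with Slc25a, which gave 47 genes among 28987 Ensembl IDs. A pseudogene, Slc25a5-ps, has such a symbol too and was left out. RNA of crypts from the ileum, where the stem cells, their dividing offspring and the Paneth cells of the epithelium lie, was sequenced in 10 libraries. The control group (Ctrl) had 3 libraries of VilCreER;Stat5 mice with the label STAT5+/+, and the KO group had 2 libraries of VilCreER;Stat5 mice labelled STAT5IEC-/-. The OE group had 5 libraries of VilCreER;icS5 mice labelled STAT5IEC+++. VilCreER is a tamoxifen-inducible Cre driven by the villin promoter, so the design acts in the epithelium, and all 3 groups carry it. The icS5 allele is not spelled out in the labels, and the control group has the Stat5 line's label, so the OE comparison with Ctrl crosses the alleles of different lines. Every mouse is labelled male, C57Bl6 and 12 weeks old. The labels do not say whether each library stands for its own animal, and p-values thus cover only the spread between these samples, which may be technical.

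Carriers of this family share a fold of repeated units that each cross the membrane in a pair of helices, and most exchange one substrate for another. The ADP/ATP carriers send ATP made by oxidative phosphorylation to the cytosol and bring ADP back, and the phosphate carrier supplies phosphate for the same reaction. Other members link mitochondria to the urea cycle, the malate-aspartate shuttle, fatty acid oxidation, lipid synthesis, iron handling and glutathione. The small intestine uses glutamine and glutamate as fuel and makes citrulline, and carriers of glutamate, aspartate and ornithine take part in that metabolism. STAT5A and STAT5B, the targets of the design, are transcription factors that receptors for cytokines and for growth hormone switch on.

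Upstream windows of 250 bases before the transcription start, from RefSeq on GRCm38.p6, were held for 36 of the 47 members, in 46 windows. The palindrome TTCNNNGAA, the core of the site STAT proteins bind, was searched on both strands and lay in 2 of the 46 windows (Slc25a36 and Slc25a54), or 4.35%. Among all 32851 windows of that length it lay in 7.02%. CCAAT, on either strand and with no overlap with that palindrome required, lay in 21 of 46 (45.7%) against 33.8% of all. CCGGAAGT, an ETS motif, lay in 1 member window, that of Slc25a20 (2.17% against 2.88%). TCAAGGTCA, the ERR motif, lay in 0 member windows and in 0.387% of all windows. These are matches of letters in a window and describe no binding. The following 5 windows belong to the members with the smallest p in the comparisons (Slc25a10, Slc25a53, Slc25a4 and Slc25a22) and to Slc25a36, the only tested member with the STAT palindrome. They are written 5′ to 3′ on the strand of the gene, with capitals for TTCNNNGAA and for CCAAT on either strand, where it reads CCAAT or ATTGG. Slc25a10 is at chr11:120491587-120491836, plus strand, Slc25a53 at chrX:136993033-136993282, minus strand, Slc25a4 at chr8:46211063-46211312, minus strand, Slc25a22 at chr7:141435376-141435625, minus strand, and Slc25a36 at chr9:97111042-97111291, minus strand. For Slc25a22 it is 1 of 3 windows and for Slc25a53 1 of 2, in each case the one with a match. RefSeq and GENCODE, from which the gene spans given further on come, do not place every start alike. The RefSeq start lay within 50 bases of a GENCODE transcript start of the gene for 41 of the 46 windows, and 28 windows overlap the GENCODE span of their own gene. Of the windows shown, those of Slc25a22 and Slc25a53 lie wholly inside that span, upstream of an inner start, those of Slc25a4 and Slc25a36 lie partly inside it, and that of Slc25a10 lies outside.
Slc25a10: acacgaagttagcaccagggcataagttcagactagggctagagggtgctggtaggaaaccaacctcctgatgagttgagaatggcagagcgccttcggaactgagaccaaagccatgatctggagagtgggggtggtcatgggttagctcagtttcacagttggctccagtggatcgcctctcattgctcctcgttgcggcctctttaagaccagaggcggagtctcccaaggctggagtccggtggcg
Slc25a53: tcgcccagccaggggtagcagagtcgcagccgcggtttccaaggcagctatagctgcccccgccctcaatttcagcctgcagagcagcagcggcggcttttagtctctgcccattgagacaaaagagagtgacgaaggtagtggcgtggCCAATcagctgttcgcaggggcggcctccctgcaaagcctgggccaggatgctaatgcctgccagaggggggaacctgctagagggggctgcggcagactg
Slc25a4: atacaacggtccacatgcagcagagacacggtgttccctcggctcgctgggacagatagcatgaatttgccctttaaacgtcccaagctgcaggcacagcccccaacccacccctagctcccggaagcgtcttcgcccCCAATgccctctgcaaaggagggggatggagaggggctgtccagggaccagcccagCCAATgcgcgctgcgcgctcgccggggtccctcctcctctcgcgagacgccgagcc
Slc25a22: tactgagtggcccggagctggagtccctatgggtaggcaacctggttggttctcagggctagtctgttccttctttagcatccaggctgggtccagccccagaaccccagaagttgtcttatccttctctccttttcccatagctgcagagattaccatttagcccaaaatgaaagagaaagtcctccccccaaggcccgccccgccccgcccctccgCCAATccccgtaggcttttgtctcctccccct
Slc25a36: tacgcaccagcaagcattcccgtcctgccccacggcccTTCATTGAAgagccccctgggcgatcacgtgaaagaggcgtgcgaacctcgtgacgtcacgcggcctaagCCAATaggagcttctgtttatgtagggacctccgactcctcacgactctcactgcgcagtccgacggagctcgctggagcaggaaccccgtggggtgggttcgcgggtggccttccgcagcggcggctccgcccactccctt
The STAT palindrome of Slc25a36 starts -212 bases from the start site and its CCAAT -142. Slc25a4 has CCAAT at -112 and -56, Slc25a53 at -101 and Slc25a22 at -32, while the Slc25a10 window holds no match to either motif.

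The deposited values are TPM, a measure of transcript abundance that is relative to all transcripts of a library, and they correct for transcript length, so levels of different genes can be compared. TPM keep no read numbers, and the depth of each library is unknown. Values below are scaled TPM, the TPM divided by a factor per library that brings the median gene to a common level. One control library, Ctrl 2, stood apart: genes encoded in mitochondrial DNA took 83.7% of its TPM, against 43.3 to 57.0% in the 9 others, and its factor was 0.295 against 0.831 to 1.31. Genes with 1 TPM or more numbered 8263 in it, and in the others 11050 to 11932. Stat5a was at 0.336 to 0.637 scaled TPM in KO and 1.07 to 2.60 in Ctrl, and Stat5b at 0.430 to 0.482 and 0.970 to 1.76, so KO was below every control library. OE reached 1.56 to 3.55 for Stat5a and 1.49 to 5.53 for Stat5b, with the library OE 1 inside the control range for both. Ctrl 3, OE 3 and OE 4 had summed Y-linked TPM of 0.140 to 3.45 against 32.3 to 131 in the other libraries, although all are labelled male.

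Crypt RNA held transcripts of most of the family. The mean over the 10 libraries was at least 100 scaled TPM for 4 members, 10 to under 100 for 14, 1 to under 10 for 17 and above 0 but under 1 for 10. Slc25a41, a carrier of the ATP-Mg/phosphate type, and Slc25a54 were listed at 0 in all 10 libraries. A value above 0 in every library was found for 37 members. The 4 most abundant members made up 69.1% of the summed mean level. Of the 47 members, 39 passed the filter of 1 TPM in at least 2 libraries and were tested. The 8 that did not were Slc25a2, Slc25a18, Slc25a21, Slc25a29, Slc25a31, Slc25a41, Slc25a47 and Slc25a54, and none of them exceeded 0.890 scaled TPM in any library.

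**Figure D1:**
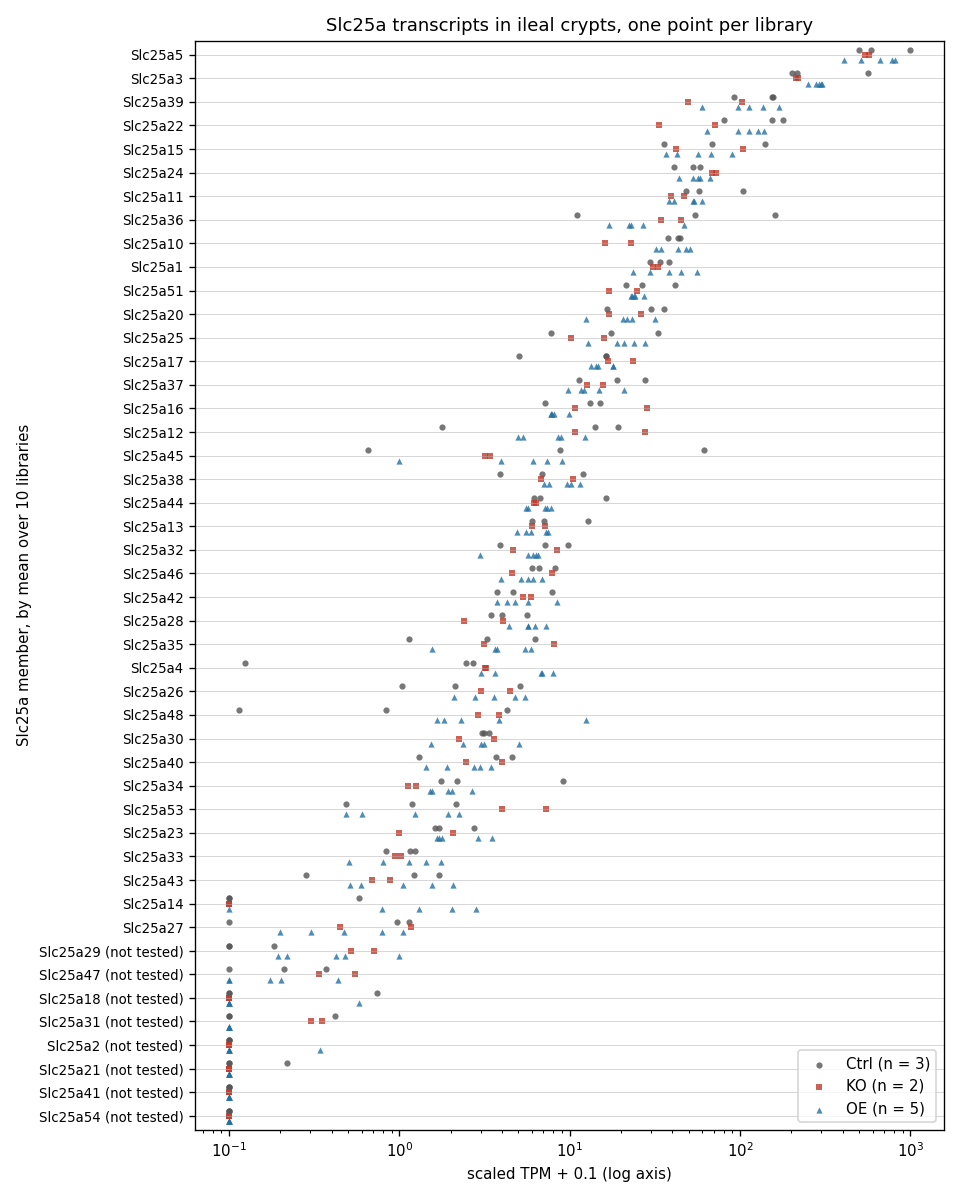
Each row is one of 46 members, ordered by mean, and each point one library (grey circles Ctrl, red squares KO, blue triangles OE) on a log axis of scaled TPM plus 0.1. Slc25a5 and Slc25a3 lead in the 3 groups, and points at the left edge are libraries in which a member was listed at 0.

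Summed over the 47 members, TPM came to 0.407 to 0.492% of the TPM of nuclear protein-coding genes in 9 libraries and to 0.668% in Ctrl 2. This share needs no scaling factor. KO had the lowest values, at 0.420 and 0.407%, below the other control libraries at 0.445 and 0.431%. OE lay at 0.459, 0.456, 0.427, 0.467 and 0.492%, and its range overlaps that of Ctrl. Ctrl 2 held the highest value of 15 of the 39 tested members and the lowest of 11, together 66.7%, where the share over all genes tested was 50.7%. Without Ctrl 2 the sign of the estimate turned for 12 of the 39 members in KO against Ctrl and for 15 in OE against Ctrl. Estimates that leaving out Ctrl 2 turned or moved by over 1.5 times are followed by their value without it. Between libraries other than Ctrl 2, 9 tested members varied by less than 2-fold from the lowest to the highest library, Slc25a44 the least at 1.41-fold.

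**Figure D2:**
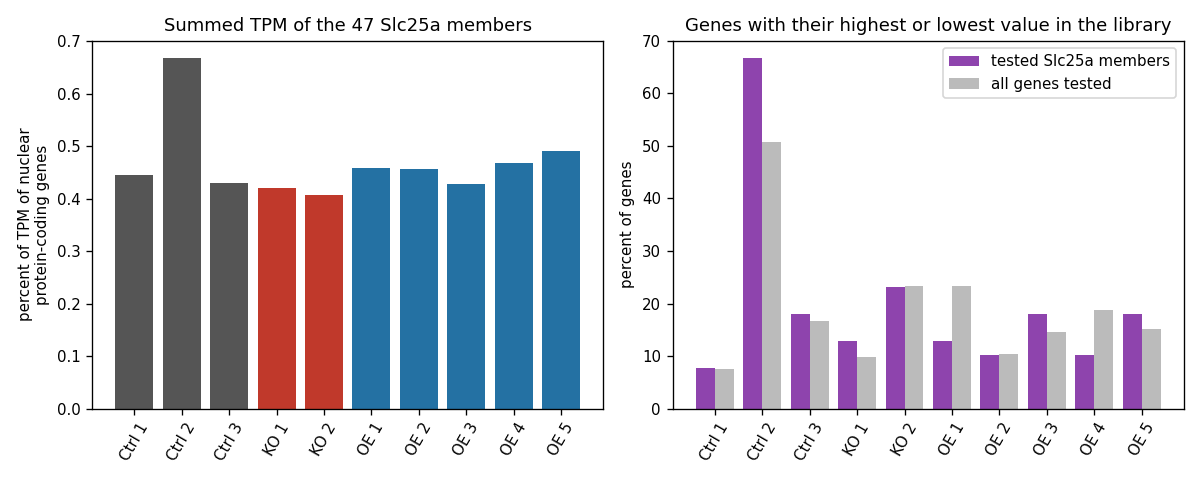
Left, summed TPM of the 47 members as a percent of the TPM of nuclear protein-coding genes, one bar per library. Right, the percent of tested members (purple) and of all genes tested (grey) that had their highest or lowest value in that library, with Ctrl 2 at 66.7 and 50.7%.

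No Slc25a member passed the threshold of an adjusted p of 0.05 in limma in any of the 3 comparisons between groups, and neither did any of the 13056 genes tested (0%). The groups held 2 to 5 libraries. In KO against Ctrl, 3 members had an unadjusted limma p under 0.05, or 7.69% of 39, beside 3.46% of all genes. These were Slc25a10 and Slc25a22, with lower estimates in KO, and Slc25a53, with a higher one. OE against Ctrl gave 1 such member, Slc25a4, or 2.56%, beside 6.1% of all genes. In OE against KO there were 6, or 15.4%, beside 2.95% of all genes: Slc25a10, Slc25a22, Slc25a28 and Slc25a14 with higher estimates in OE, and Slc25a53 and Slc25a16 with lower ones. Slc25a14 is the only one of the 39 that passed the filter on low values through a single group, OE, and its p is not independent of that filter. This comparison and KO against Ctrl share the 2 KO libraries, so their estimates for a member are not independent.

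Another view counts the members whose libraries did not overlap between groups. In KO against Ctrl, 4 members lay above every control library (Slc25a4, Slc25a17, Slc25a24 and Slc25a53), or 10.3% beside 9.09% of all genes, and 4 lay below (Slc25a10, Slc25a11, Slc25a22 and Slc25a34), or 10.3% beside 7.27%. On TPM as deposited, without scaling, 2 of the former stayed apart (Slc25a24 and Slc25a53), or 5.13% beside 8.44% of all genes, and 1 of the latter (Slc25a34), or 2.56% beside 1.47%. In OE against Ctrl, 1 member lay above every control library, Slc25a4, or 2.56% beside 2.21% of all genes, and 0 lay below, beside 1.52%, and deposited TPM gave the same member, beside 1.78% above and 0.237% below. In OE against KO, 4 lay above (Slc25a3, Slc25a10, Slc25a28 and Slc25a34), or 10.3% beside 4.04%, and 3 below (Slc25a16, Slc25a24 and Slc25a53), or 7.69% beside 4.43%. On deposited TPM Slc25a22 took the place of Slc25a3 among those above, 10.3% beside 3.09%, and Slc25a24 overlapped, which left 2 below, 5.13% beside 3.63%.

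The estimates were spread to both sides of 0. In KO against Ctrl, 13 of the 39 tested members had a positive log2 difference and 26 a negative one, with a median of -0.16 beside 0.04 over all genes. In OE against Ctrl, 15 were positive and 24 negative, with a median of -0.12 beside 0.02. In OE against KO, 22 were positive and 17 negative, with a median of 0.07 beside -0.000623. Without Ctrl 2 the medians against Ctrl were -0.06 for KO and -0.01 for OE. On TPM as deposited both turned positive, to 0.19 and 0.23, but the median of all genes then stood at 0.38 and 0.36. Relative to all genes, the member median for KO was -0.19 on scaled and -0.20 on deposited values, and that for OE -0.14 and -0.13. Without Ctrl 2 the relative medians on scaled values were closer to 0, at -0.062 for KO and -0.008 for OE. These medians carry no test.

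**Figure D3:**
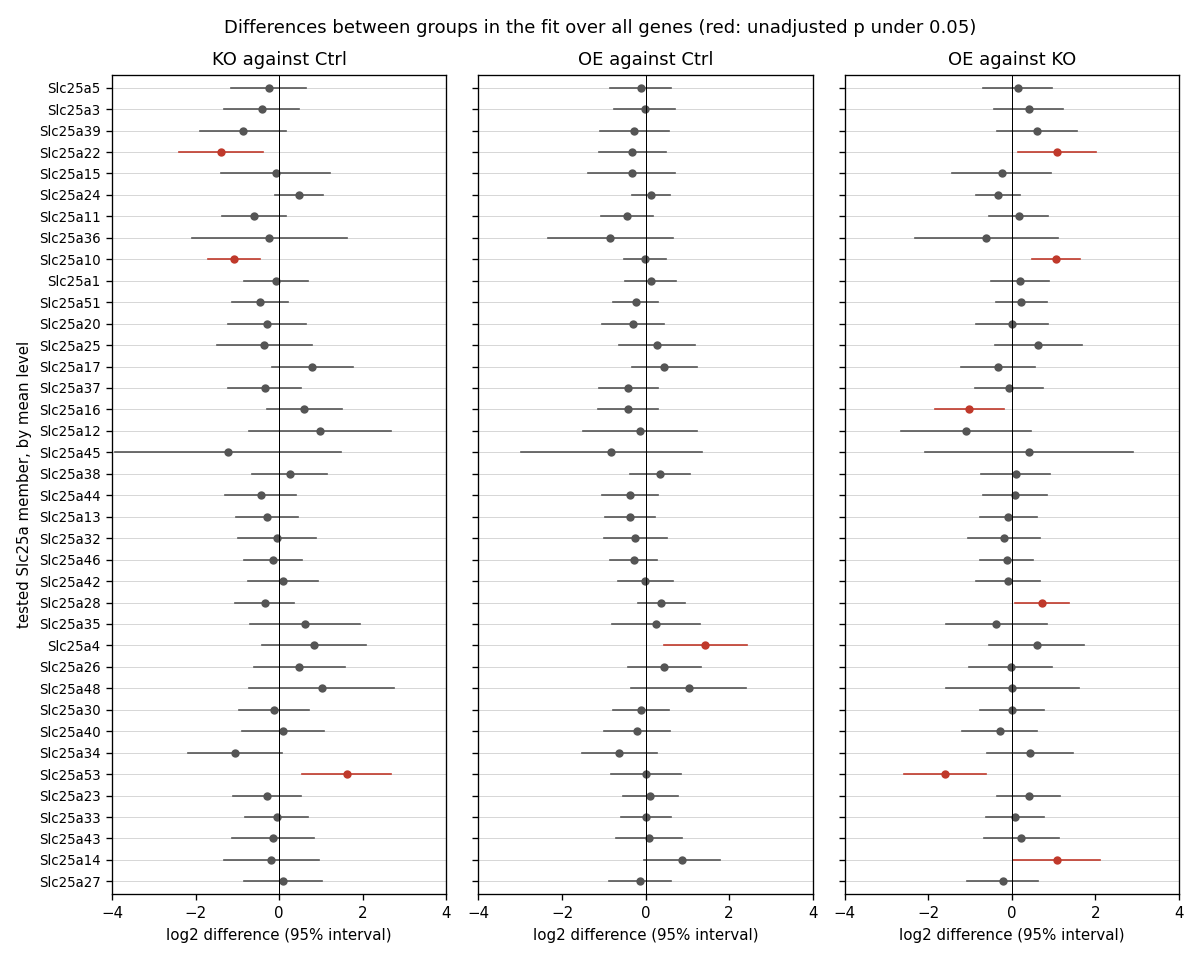
Log2 differences of 38 of the 39 tested members with 95% intervals in the 3 comparisons, ordered by mean level, with 0 marked by the vertical line. Red marks an unadjusted p under 0.05 (3, 1 and 6 members), and no member passed after adjustment over 13056 genes.

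The ADP/ATP carriers were the most abundant role, with 31.2 to 42.8% of the summed TPM of the family. Slc25a5, the ADP/ATP carrier of dividing and many other cells, accounted for nearly all of it. Slc25a5 was at 503, 993 and 589 scaled TPM in Ctrl, 571 and 545 in KO and 778, 662, 405, 516 and 809 in OE. Its highest level was in Ctrl 2 and its lowest in OE 3, and the 3 groups overlap. Slc25a4 (ENSMUSG00000031633, chromosome 8, 46206797 to 46211284, minus strand) encodes the ADP/ATP carrier typical of heart and muscle. Slc25a4 was at 2.34, 0.0246 and 2.60 scaled TPM in Ctrl, 3.14 and 3.10 in KO and 6.74, 2.90, 3.54, 6.64 and 7.92 in OE. Ctrl 2 was near 0, and every OE and KO library was above the 3 control libraries, OE 2 only just. Group levels were 1.66 ± 1.42 (SD, n = 3) for Ctrl, 3.12 ± 0.0271 (SD, n = 2) for KO and 5.55 ± 2.19 (SD, n = 5) for OE. The log2 difference between OE and Ctrl was 1.43 (95% interval 0.43 to 2.43), with a limma p of 0.00931 and an adjusted p of 0.755. Without Ctrl 2 it was 0.84. Slc25a31, the testis form, was above 0 in 3 libraries, with 0.315 scaled TPM at most.

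Slc25a3, the phosphate carrier, which also brings copper into mitochondria, ranked 2 in the family by mean level. Slc25a3 was at 201, 562 and 215 scaled TPM in Ctrl, 218 and 214 in KO and 299, 251, 293, 280.2 and 305 in OE. Leaving Ctrl 2 aside, the 5 OE libraries lay above the 2 KO and the 2 other control libraries on scaled TPM. On deposited TPM the OE libraries overlapped those of KO and those of Ctrl. The log2 difference between OE and KO was 0.40 (95% interval -0.43 to 1.23), and that between OE and Ctrl -0.02 (95% interval -0.75 to 0.70) with Ctrl 2 included, and neither passed. Without Ctrl 2 the latter was 0.45, and without OE 2 it was 0.02. Among the calcium-regulated carriers that exchange ATP-Mg for phosphate, Slc25a24 led. Slc25a24 was at 58.5, 40.9 and 52.9 scaled TPM in Ctrl, 68.1 and 71.8 in KO and 52.5, 58.2, 44.0, 66.5 and 56.6 in OE. Both KO libraries were above the 8 others. The log2 difference was 0.47 (95% interval -0.10 to 1.04) against Ctrl, limma p 0.0983, and -0.34 (95% interval -0.86 to 0.19) for OE against KO, so neither reached the threshold before adjustment. The related Slc25a25 was at 7.65, 32.7 and 17.3 scaled TPM in Ctrl, 15.8 and 10.1 in KO and 12.7, 18.8, 27.4, 20.8 and 23.9 in OE. Its groups overlap, and Ctrl 1 and Ctrl 2 mark its lowest and highest level. Slc25a23, another carrier of this type, lay between 0.894 and 3.40 scaled TPM over all libraries.

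The dicarboxylate carrier Slc25a10 (ENSMUSG00000025792, chromosome 11, 120491840 to 120499187, plus strand), which exchanges malate or succinate for phosphate, had the smallest p of the family. It was at 37.7, 42.9 and 44.2 scaled TPM in Ctrl, 22.9 and 16.0 in KO and 34.2, 43.0, 32.1, 50.9 and 48.2 in OE. Both KO libraries were below the 8 others, and Ctrl and OE overlap. Mean levels were 41.6 ± 3.41 (SD, n = 3) for Ctrl, 19.5 ± 4.90 (SD, n = 2) for KO and 41.7 ± 8.31 (SD, n = 5) for OE. The KO difference from Ctrl was -1.07 (95% interval -1.70 to -0.45) on the log2 scale, with a limma p of 0.00316 and an adjusted p of 0.943. OE differed from KO by 1.06 (95% interval 0.49 to 1.63), with a limma p of 0.00196 and an adjusted p of 1. The estimate for OE against Ctrl was -0.02 (95% interval -0.51 to 0.48), and it took either sign over single libraries left out, from -0.09 without OE 4 to 0.07 without OE 3, with 0.01 without Ctrl 2. Leaving out Ctrl 2 gave -1.05 for KO against Ctrl, and the unscaled TPM -0.57, with groups that then overlap.

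Slc25a11, the oxoglutarate carrier of the malate-aspartate shuttle, exchanges oxoglutarate for malate. It was at 48.0, 104 and 57.6 scaled TPM in Ctrl, 47.1 and 39.3 in KO and 53.9, 52.6, 38.3, 40.8 and 59.6 in OE. Its level in Ctrl 2 was above that in the other control libraries, which fell in the OE range. For OE against Ctrl the log2 difference was -0.44 (95% interval -1.06 to 0.17), and -0.12 without Ctrl 2. On deposited TPM it was positive, at 0.06. Slc25a1, the citrate carrier that feeds lipid synthesis, was at 29.3 to 38.0 scaled TPM in Ctrl, 30.8 to 33.0 in KO and 23.5 to 55.6 in OE. Its estimates were -0.07 for KO and 0.13 for OE against Ctrl, which turned to 0.02 without Ctrl 3 and -0.02 without OE 5. Slc25a21, a carrier of oxodicarboxylates, was above 0 in Ctrl 2 alone.

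Glutamate carrier Slc25a22 (ENSMUSG00000019082, chromosome 7, 141429744 to 141437892, minus strand) had the most negative estimate of the 39 members in KO against Ctrl. It was at 153, 178 and 80.4 scaled TPM in Ctrl, 33.4 and 71.0 in KO and 138, 64.0, 96.6, 112 and 127 in OE. The KO libraries were below the 3 control libraries, and OE 2 fell between the 2 KO libraries. Group means were 137 ± 50.7 (SD, n = 3) for Ctrl, 52.2 ± 26.6 (SD, n = 2) for KO and 108 ± 28.9 (SD, n = 5) for OE. The KO difference from Ctrl was -1.39 (95% interval -2.40 to -0.39), limma p 0.0115, adjusted p 0.943. Between OE and KO it was 1.08 (95% interval 0.15 to 2.00), limma p 0.0265, adjusted p 1. Leaving out 1 KO library moved the KO estimate between -1.93 (without KO 2) and -0.86 (without KO 1), and the OE estimate against KO between 1.61 and 0.55. Slc25a12 and Slc25a13 are the paralogs that send aspartate out for glutamate in the malate-aspartate shuttle. Slc25a12 was at 19.0, 1.67 and 14.0 scaled TPM in Ctrl, 10.6 and 27.6 in KO and 4.90, 8.43, 5.25, 8.78 and 12.1 in OE. Ctrl 2 was the lowest and KO 2 the highest, and the difference between OE and KO, -1.10 (95% interval -2.65 to 0.46), did not pass. It was -0.45 without KO 2 and -1.75 without KO 1. Slc25a13 was at 5.92, 12.8 and 6.97 scaled TPM in Ctrl, 7.09 and 5.92 in KO and 7.13, 4.79, 7.36, 5.44 and 5.81 in OE. Ctrl 2 was again apart, here as the highest. OE differed from Ctrl by -0.38 (95% interval -0.97 to 0.22), by -0.08 without Ctrl 2, and by 0.07 on deposited TPM. Slc25a18, the other glutamate carrier, was above 0 in 2 libraries, at 0.480 and 0.639.

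Among carriers of basic amino acids, Slc25a15, the ornithine carrier of the urea cycle and of citrulline synthesis, was abundant. It was at 68.8, 139.8 and 35.7 scaled TPM in Ctrl, 41.8 and 104 in KO and 89.6, 42.3, 67.4, 36.6 and 56.3 in OE. The groups overlap, with the lowest value in Ctrl 3 and the highest in Ctrl 2, and estimates of -0.09 (95% interval -1.39 to 1.21) for KO and -0.33 (95% interval -1.37 to 0.71) for OE against Ctrl. Without Ctrl 2 both were positive, at 0.41 and 0.16. The KO estimate was also 0.56 without KO 1 and -0.74 without KO 2. Slc25a29, which carries arginine and lysine, stayed at 0.890 or below, and Slc25a2, the other ornithine carrier, was above 0 in OE 1 alone. For Slc25a38, which brings in glycine for haem synthesis, Ctrl held 6.77, 3.79 and 11.8, KO 6.66 and 10.3 and OE 7.45, 6.92, 9.50, 11.4 and 10.1 scaled TPM. Slc25a44, the carrier of branched-chain amino acids, was at 6.04, 16.3 and 6.58 in Ctrl, 6.25 and 6.07 in KO and 7.25, 7.67, 5.46, 5.56 and 7.02 in OE. Apart from Ctrl 2 it hardly varied. Slc25a26, which imports S-adenosylmethionine, ranged from 0.941 to 5.39, and the folate carrier Slc25a32 from 2.88 to 9.61.

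Slc25a20, the carnitine/acylcarnitine carrier that admits fatty acids for oxidation, led its role. It was at 16.4, 30.1 and 35.9 scaled TPM in Ctrl, 26.1 and 16.9 in KO and 31.7, 21.6, 23.2, 12.4 and 20.3 in OE. Its groups overlap, and OE 4 was the lowest of the 10 libraries. The estimates were -0.30 (95% interval -1.24 to 0.63) for KO and -0.31 (95% interval -1.05 to 0.44) for OE against Ctrl, or -0.20 and -0.21 without Ctrl 2 and -0.08 and -0.08 without Ctrl 3. Slc25a45 was at 8.70, 61.6 and 0.551 scaled TPM in Ctrl, 3.31 and 3.06 in KO and 7.25, 3.87, 8.95, 0.895 and 6.0 in OE. Ctrl alone covered its whole range, from Ctrl 3 to Ctrl 2, so its intervals were the widest: -1.23 (95% interval -3.93 to 1.48) for KO and -0.82 (95% interval -2.98 to 1.34) for OE. Both turned positive without Ctrl 2, to 0.11 and 0.52, and were -2.56 and -2.15 without Ctrl 3. Slc25a48, linked to choline import, was at 4.20, 0.0149 and 0.731 scaled TPM in Ctrl, 2.78 and 3.74 in KO and 12.4, 1.72, 3.74, 1.56 and 2.19 in OE. OE 1 was far above the 9 others. Its difference between OE and Ctrl was 1.03 (95% interval -0.36 to 2.42), and 0.62 without OE 1 and 0.51 without Ctrl 2, but 1.69 without Ctrl 1. In limma with a weight for each library the difference was 0.0257. Slc25a47 did not exceed 0.450.

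Carriers of nucleotides and cofactors made up 4.24 to 8.73% of the family's summed TPM. Slc25a36, a carrier of pyrimidine nucleotides and the tested member with a STAT palindrome upstream, was the highest. It was at 54.3, 160.2 and 10.98 scaled TPM in Ctrl, 34.4 and 45.0 in KO and 22.8, 26.7, 46.5, 22.2 and 16.9 in OE. Ctrl 3 and Ctrl 2 mark its lowest and highest value, and its estimates were -0.23 (95% interval -2.10 to 1.63) for KO, -0.84 (95% interval -2.33 to 0.65) for OE against Ctrl and -0.61 (95% interval -2.32 to 1.10) for OE against KO. Without Ctrl 2 those against Ctrl turned positive, to 0.65 for KO and 0.04 for OE, and without Ctrl 3 they were -1.23 and -1.83. Slc25a51, the NAD+ carrier, was at 26.4, 41.4 and 21.3 scaled TPM in Ctrl, 16.8 and 24.9 in KO and 23.2, 22.9, 23.7, 23.9 and 27.1 in OE. The groups overlap, with Ctrl 2 highest and KO 1 lowest. Slc25a17 (ENSMUSG00000022404, chromosome 15, 81318911 to 81360812, minus strand) is the member found in peroxisomes, where it moves coenzyme A and flavin cofactors. It was at 16.2, 4.92 and 16.1 scaled TPM in Ctrl, 23.6 and 16.6 in KO and 14.1, 17.9, 14.6, 13.3 and 17.9 in OE. KO was above Ctrl by 0.79 (95% interval -0.18 to 1.76) on the log2 scale, limma p 0.0993, and by 0.28 without Ctrl 2, the lowest library.

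Slc25a16 (ENSMUSG00000071253, chromosome 10, 62920633 to 62946498, plus strand) is linked to coenzyme A supply. It was at 15.0, 13.0 and 7.09 scaled TPM in Ctrl, 10.7 and 28.4 in KO and 9.82, 7.64, 7.93, 7.75 and 7.66 in OE. KO 2 was the highest library, and the OE values were close together and below both KO values. OE differed from KO by -1.02 (95% interval -1.85 to -0.19), limma p 0.0206, adjusted p 1, and by -0.36 without KO 2 and -1.69 without KO 1. Slc25a42, a coenzyme A carrier, lay between 3.63 and 8.33. Slc25a33, the other carrier of pyrimidine nucleotides, ranged from 0.408 to 1.66.

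Of the iron and glutathione carriers, Slc25a39, which imports glutathione, ranked 3 in the whole family by mean level. It was at 92.4, 157 and 154 scaled TPM in Ctrl, 103 and 49.2 in KO and 113, 136, 59.6, 96.8 and 168 in OE. KO 2 and OE 3 had the lowest levels, and KO lay -0.86 (95% interval -1.90 to 0.17) from Ctrl with a limma p of 0.0934, or -0.34 without KO 2 and -1.39 without KO 1. Its paralog Slc25a40 was at 1.20 to 4.46 over all libraries. Slc25a37 and Slc25a28 are the mitoferrins, which bring iron into mitochondria. Slc25a37 was at 18.9, 27.6 and 11.2 scaled TPM in Ctrl, 15.5 and 12.6 in KO and 20.8, 12.0, 11.6, 14.7 and 9.69 in OE. Its groups overlap, with OE estimated at -0.42 (95% interval -1.12 to 0.29) from Ctrl, or -0.12 without Ctrl 2 and -0.74 without Ctrl 3. Slc25a28 (ENSMUSG00000040414, chromosome 19, 43663801 to 43674881, minus strand) was lower in level. It was at 3.33, 3.88 and 5.50 scaled TPM in Ctrl, 3.98 and 2.30 in KO and 6.13, 5.57, 5.57, 4.32 and 7.18 in OE. Each OE library was above both KO libraries, OE 4 by little over KO 1. OE differed from KO by 0.72 (95% interval 0.08 to 1.37), limma p 0.0308, adjusted p 1, and from Ctrl by 0.37 (95% interval -0.19 to 0.93). Without KO 2 the OE difference from KO was 0.43.

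The members related to uncoupling proteins were low. Slc25a30 was at 2.96 to 3.24 scaled TPM in Ctrl, 2.13 to 3.47 in KO and 1.43 to 4.95 in OE. Slc25a14 (ENSMUSG00000031105, chromosome X, 48623413 to 48662294, plus strand), best known from brain, was listed at 0 in 5 of the 10 libraries. It was at 0.482, 0 and 0 scaled TPM in Ctrl, 0 and 0 in KO and 2.72, 0, 0.693, 1.95 and 1.20 in OE. Both KO libraries were at 0, as were OE 2 and 2 control libraries, so no fold is given. The log2 difference between OE and KO on values plus 1 was 1.07 (95% interval 0.03 to 2.12), adjusted p 1 in limma. Slc25a14 was tested only because 3 OE libraries had 1 TPM or more, and this difference is therefore a description. Between OE and Ctrl it was 0.88 (95% interval -0.03 to 1.79). Slc25a27 ranged from 0 to 1.07.

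Slc25a53 (ENSMUSG00000044348, chromosome X, 136981116 to 137038302, minus strand), a member of unsettled substrate, had the largest positive estimate in KO against Ctrl. It was at 2.05, 0.387 and 1.08 scaled TPM in Ctrl, 3.91 and 7.14 in KO and 1.82, 0.504, 0.384, 2.14 and 1.13 in OE. Both KO libraries were above the 8 others, while Ctrl and OE overlap. Means were 1.17 ± 0.837 (SD, n = 3) for Ctrl, 5.52 ± 2.28 (SD, n = 2) for KO and 1.20 ± 0.779 (SD, n = 5) for OE. The KO difference from Ctrl was 1.61 (95% interval 0.55 to 2.67), limma p 0.00674, adjusted p 0.943. OE differed from KO by -1.60 (95% interval -2.57 to -0.63), limma p 0.00419, adjusted p 1. Slc25a53 is X-linked, and leaving out the 3 libraries low in Y-linked genes gave 1.62 and -1.60. Slc25a34 was at 2.08, 9.0 and 1.66 in Ctrl, 1.14 and 1.02 in KO and 2.56, 1.44, 1.41, 1.81 and 1.95 in OE. Ctrl 2 held the highest level, and KO the lowest. Its KO difference from Ctrl was -1.06 (95% interval -2.18 to 0.06), or -0.46 without Ctrl 2, and its OE difference -0.63 (95% interval -1.53 to 0.27), or -0.03. Slc25a46, a protein of the outer membrane tied to mitochondrial shape, was at 5.88 to 8.13 in Ctrl, 4.51 to 7.80 in KO and 3.86 to 6.78 in OE. Slc25a35 ranged from 1.04 to 8.03 and Slc25a43 from 0.181 to 1.96.

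**Figure D4:**
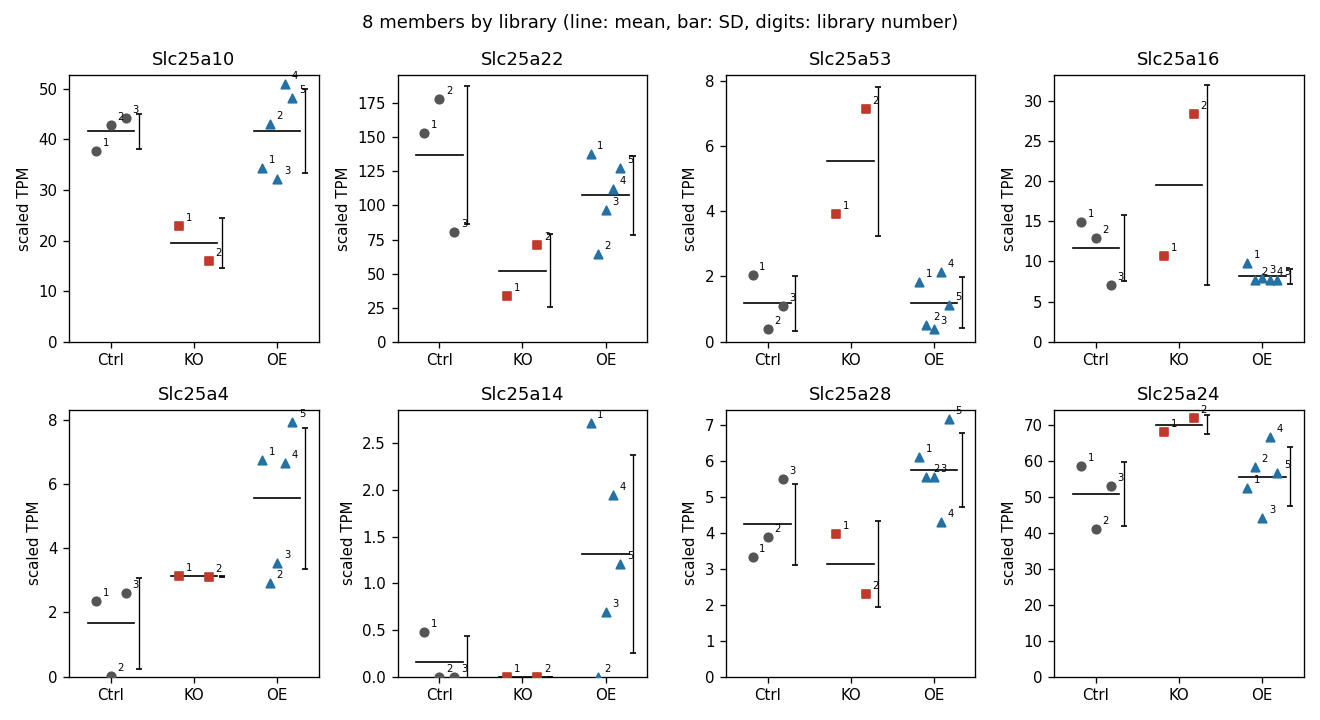
Scaled TPM of 8 members in each library, with digits for the library number, a line at the group mean and a bar for the SD to its right. Slc25a10 is lowest and Slc25a53 and Slc25a24 are highest in the 2 KO libraries, and Slc25a16 in KO rests on KO 2.

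Where paralogs do the same job, the share of each in their summed TPM does not depend on library scaling. Values are means ± SD. Slc25a5 made up 99.7 ± 0.260% in the 3 Ctrl libraries, 99.4 ± 0.0133% in the 2 KO libraries and 99.1 ± 0.299% in the 5 OE libraries of Slc25a4 plus Slc25a5. Slc25a24 made up 71.2 ± 16.1% in the 3 Ctrl libraries, 83.0 ± 3.73% in the 2 KO libraries and 70.8 ± 7.50% in the 5 OE libraries of the ATP-Mg/phosphate carriers Slc25a23, Slc25a24 and Slc25a25. The 2 KO values, 80.3 and 85.6%, were above all 5 OE values, of which the highest was 78.5%, and Ctrl 2 was the lowest of all at 54.4%. Slc25a37 made up 79.9 ± 11.2% in the 3 Ctrl libraries, 82.1 ± 3.49% in the 2 KO libraries and 69.6 ± 8.23% in the 5 OE libraries of the mitoferrin sum. Every OE value was below both KO values, the highest OE value being 77.3% and the lowest KO value 79.6%. For the aspartate carriers, Slc25a13 took 48.5 ± 34.9% in the 3 Ctrl libraries, 28.9 ± 15.9% in the 2 KO libraries and 44.9 ± 12.9% in the 5 OE libraries, with 88.4% in Ctrl 2 and 23.8 and 33.2% in the other control libraries. Slc25a36 took 96.1 ± 4.77% in the 3 Ctrl libraries, 97.8 ± 0.526% in the 2 KO libraries and 95.9 ± 2.87% in the 5 OE libraries of the pyrimidine carriers. In 15 exact two-sided permutation tests of 5 shares over 3 comparisons, the smallest p was 0.0893 and the smallest adjusted p 0.603. The smallest p that the number of libraries allows is 0.1 between KO and Ctrl, 0.0179 between OE and Ctrl and 0.0476 between OE and KO.

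**Figure D5:**
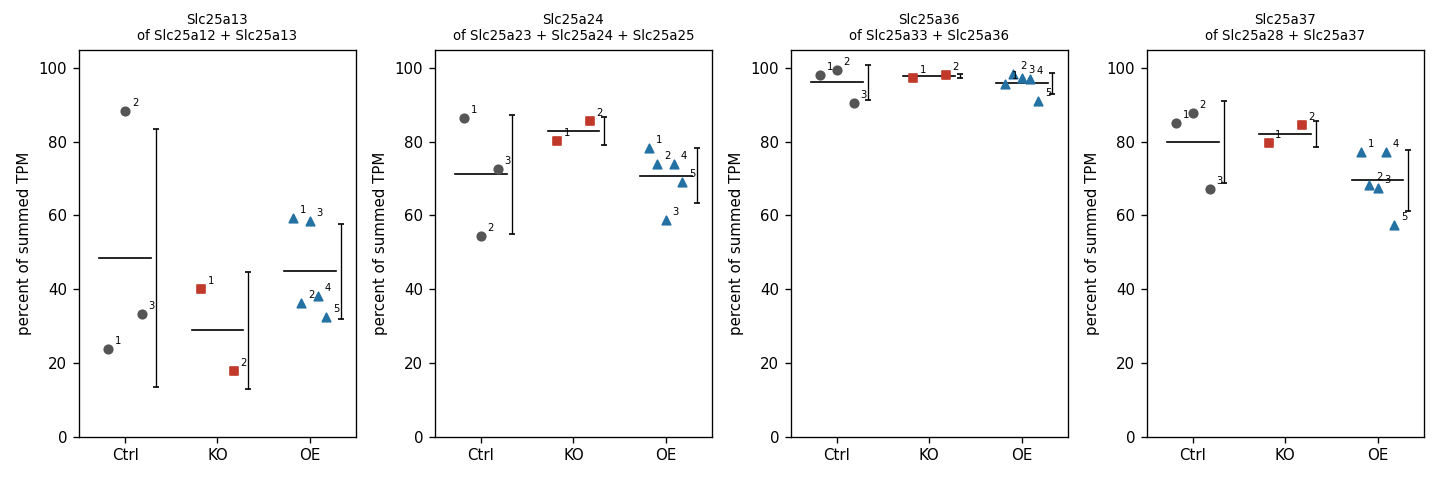
Share of one paralog in the summed TPM of its set, in percent, for 4 of the 5 sets (the ADP/ATP carriers are not drawn), with each library a point in its group, with a line at the mean and a bar for the SD. Slc25a13 spreads from 17.7 to 88.4%, the latter in Ctrl 2.

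Some carriers of the family go by other symbols. Ucp2, an uncoupling protein, had a mean ± SD of 509 ± 82.0 in the 3 Ctrl, 431 ± 80.9 in the 2 KO and 469.5 ± 121 scaled TPM in the 5 OE libraries, a level above that of every Slc25a member other than Slc25a5. Mtch2, an outer membrane relative that inserts proteins, was at 450.0 ± 65.5, 434 ± 2.30 and 416 ± 63.3, in that order. Ucp1, the uncoupler of brown fat, was listed at 0 in every library. Carriers reach the inner membrane through the TOM complex of the outer membrane, the small TIM proteins and the TIM22 complex, and 12 genes of this route were measured, the most abundant of them the TOM genes Tomm22 and Tomm70a. The estimates were positive for 7 of 12 between KO and Ctrl, 7 of 12 between OE and Ctrl and 8 of 12 between OE and KO, and 0 passed. Among 78 tested nuclear genes of the respiratory chain, 31, 48 and 50 were positive in those comparisons, with medians of -0.09, 0.07 and 0.16, and 0 passed. Without Ctrl 2, 46 were positive for KO and 60 for OE against Ctrl, with medians of 0.05 and 0.18. For OE against Ctrl the respiratory chain median was thus above 0 and that of the carriers, -0.12, below it. Without Ctrl 2 the median of the carriers was -0.0142, beside -0.00583 over all genes, and without Ctrl 3 it was 0.0184.

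Enzymes that use the carriers' substrates were examined as lists as well, and 0 genes of any list passed in any comparison. Of 7 genes of carnitine-linked fatty acid oxidation, 0 were positive and 7 negative in OE against Ctrl, with a median of -0.44, where the carnitine carrier Slc25a20 was at -0.31. Without Ctrl 2, 1 was positive and 6 were negative, with a median of -0.31. On deposited TPM 4 were positive and 3 negative, with a median of 0.07. In KO against Ctrl, where Slc25a20 was at -0.30, 3 of the 7 were positive and 4 negative, with a median of -0.30. Their most abundant member, Hadha, a subunit of the trifunctional protein, had a mean ± SD of 295 ± 53.0 in the 3 Ctrl, 226 ± 107 in the 2 KO and 221 ± 56.6 scaled TPM in the 5 OE libraries. The 4 enzymes of the malate-aspartate shuttle had 1 positive and 3 negative estimates in KO against Ctrl, with a median of -0.51, but 2 of each and a median of -0.03 without Ctrl 2. In the same comparison Slc25a11 was at -0.61, Slc25a12 at 0.97 and Slc25a13 at -0.29, or -0.28, 0.07 and 0.01 without Ctrl 2. In KO against Ctrl the 7 genes of citrate use were 3 positive and 4 negative (2 and 5 without Ctrl 2). The 7 of ornithine and the urea cycle were 5 positive and 2 negative (4 and 3). In OE against Ctrl both lists had 4 positive and 3 negative estimates, or 3 and 4 for citrate use without Ctrl 2. Haem and iron-sulfur genes, 8 in number, were 2 positive and 6 negative in each comparison with Ctrl, and 5 and 3 for KO without Ctrl 2.

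The levels of marker genes for crypt cells and for other cells of the gut wall are given beside these results. In bulk RNA, fewer cells of a type and less RNA per cell cannot be told apart. Summed over 12 enterocyte markers, Ctrl 2 reached 15544 scaled TPM, with 2305 and 3913 in the other control libraries, 2163 to 2583 in KO and 1542 to 9634 in OE. In each comparison with Ctrl, 1 of the 12 was positive and 11 were negative. Without Ctrl 2 these counts were 4 and 8 for KO and 10 and 2 for OE. The 10 Paneth cell markers summed to 821 to 3329 in Ctrl, with Ctrl 2 lowest, 1336 to 4265 in KO and 1846 to 6189.8 in OE. Of 6 tested fibroblast markers, 6 were positive in KO against Ctrl, 5 in OE against Ctrl and 1 in OE against KO. All 8 fibroblast markers summed to 10.6 to 20.5 in Ctrl, 22.9 to 76.3 in KO and 13.0 to 109 in OE. Of 7 tested macrophage markers, 7, 7 and 0 were positive in those comparisons. All 8 macrophage markers summed to 9.22 to 12.9, 17.4 to 27.5 and 7.50 to 29.5. Of 7 T cell markers, 1, 7 and 7 were positive. T cell marker sums were 42.7 to 155 in Ctrl, 25.0 to 65.6 in KO and 77.0 to 325 in OE. B cell marker sums were 4.82 to 30.6 in Ctrl, 11.9 to 28.3 in KO and 21.7 to 189 in OE, and those of red blood cells 13.1 to 40.0, 37.0 to 56.6 and 15.4 to 143. The 6 smooth muscle markers stayed at 1.31 to 3.38, and 10 cell cycle genes at 71.0 to 272, 183 to 314 and 258 to 357, with Ctrl 2 lowest. Goblet cell markers summed to 1743 to 5196, 2010.3 to 3089 and 1384 to 4596, and stem cell markers to 119 to 461, 278 to 332 and 134 to 655. In OE against Ctrl, 10 of 10 cell cycle genes, 9 of 10 Paneth and 6 of 6 B cell markers were positive. Without Ctrl 2 these counts were 7, 7 and 6. In KO against Ctrl they were 9, 6 and 4, or 3, 2 and 5 without Ctrl 2. No list had a marker at 0 in every library. The part of these cells in the levels of the carriers was not tested.

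Whether the counting used strand is not given in the sources used here, so members that share exons with a gene on the opposite strand are uncertain. Slc25a35 shares 1151 of its 3677 exonic bases (31.3%) with Rangrf, whose mean level was 145 scaled TPM against 4.13 for Slc25a35. Slc25a33 shares 14.9% with the antisense transcript Gm13068, at 0.783 against 0.980 for Slc25a33. Slc25a11 shares 8.92% with Rnf167, at 119.9. The antisense transcript over 6.60% of Slc25a10, Gm11788, was at 0.0836. Of the members, 4 pairs lie within 200000 bases of each other: Slc25a29 and Slc25a47, 162 bases apart on chromosome 12, Slc25a23 and Slc25a41, 2056 apart on chromosome 17, Slc25a24 and Slc25a54, 6461 apart on chromosome 3, and Slc25a5 and Slc25a43, 18448 apart on chromosome X. Within the pair on chromosome 3, Slc25a24 was at 57.0 scaled TPM on average and Slc25a54 at 0.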

How the data were processed

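The members and lists were chosen with earlier results of these data known. Per the labels, total RNA was isolated with mirVana from crypts shaken off the ileum in EDTA and sequenced single-end. The deposited values are TPM, per the file headers of 9 libraries. For Ctrl 1 the unit was taken from the values. The submitters' processing notes name TopHat, Cufflinks and mm10, with no versions. Which tool gave the TPM and with which annotation is not given in the sources used here. Depth is unknown.

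Symbols and coordinates came by ID from GENCODE M21 (GRCm38, also called mm10), for 27458 of 28987 IDs, with 1529 unmatched. TPM were divided by median-ratio factors over 11146 genes above 0 in every library. Genes needed 1 TPM or more in 2 libraries or more, and the 13056 that had it were tested in limma 3.58.1 under R 4.3.3. The model had 3 group means over all 10 libraries and a trend of the variance with level, and its input was the log2 of scaled TPM plus 1. Differences are on that scale, which understates those of low genes. P-values were adjusted by Benjamini-Hochberg over these 13056 genes, and the threshold was 0.05. Shares of paralogs were compared by exact permutation tests (scipy 1.17.1). The fit was tested on simulated data. Named by rule were the 2 members with the highest mean of each role, and in each comparison the 3 members with the smallest p in each direction. These include Slc25a28, Slc25a16 and Slc25a14. The OE against KO difference of Slc25a14 lay outside the rule and was given for its unadjusted limma p under 0.05. Further members and the 5 upstream windows were named after their values were seen. Alternatives were other scalings, pseudocounts, filters and fits, and leaving out libraries. The values of 1 tested member are not reported here, though it counts in the totals.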

Additional observations from a re-analysis of the deposited data

Results flagged for a closer look

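In the OE group, 35 sets of 5 values, those of the members named by rule and of the paralog shares, were checked for a library at an end of the range with a large gap to its neighbour. Of these sets 3 had one. Chance gives about 1 in 20 such groups. Slc25a51, the NAD+ carrier, had its highest OE value, 27.1 scaled TPM, in OE 5, above a narrow set of 22.9 to 23.9 in the 4 others. Slc25a48 had its highest OE value, 12.4 scaled TPM, in OE 1. Slc25a16 had its highest OE value, 9.82 scaled TPM, in OE 1, over 7.64 to 7.93 in the others. OE 1 is also the library with Stat5a and Stat5b inside the control range, and its summed fibroblast markers were the highest of the 10 libraries. Their part in these values was not tested.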

How the results depend on the processing

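No member passed in any alternative. Few genes passed anywhere: for KO against Ctrl 5 without the filter on low values and 1 with only the groups compared (0 to 2 when each library was left out in turn); for OE against Ctrl 1 with only the groups compared and 1 without the 3 libraries low in Y-linked genes (0 to 1); for OE against KO 7 without the filter, 1 without those 3 libraries and 1 without Ctrl 2 and OE 1, a setting chosen after seeing the data (0 to 2). The member median was 0.19 for KO against Ctrl on deposited TPM (-0.19 to -0.06 over single libraries left out). For OE against Ctrl it was 0.23 on deposited TPM, 0.0276 without the 3 libraries and 0.0046 without Ctrl 2 and OE 1 (-0.185 to 0.0184). For OE against KO it was 0.0420 to 0.184 over libraries left out. Signs turned on deposited TPM for Slc25a11 (0.0618) and Slc25a13 (0.0676) in OE against Ctrl, and for no other of the 18 differences named for their p in any alternative. The 22 tested members with the highest means of their roles were followed as a set. On deposited TPM signs turned for 11 in KO against Ctrl, 14 in OE against Ctrl and 0 in OE against KO. Without Ctrl 2 they turned for 7 in KO against Ctrl and 11 in OE against Ctrl. The OE against KO estimates do not use Ctrl 2, so leaving it out cannot turn them. Leaving out single libraries in turn, at least 1 turned the sign for 10, 14 and 8 of the 22, in that order of comparisons. The cause of these changes was not tested.

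Of the shares, in percentage points, that of Slc25a13 ran from -31.9 to 0.399 for KO and -15.9 to 16.4 for OE against Ctrl over libraries left out. That of Slc25a24 for OE against Ctrl ran from -8.73 to 7.29 and was 3.40 without the 3 libraries. That of Slc25a36 ran from -1.04 to 3.40 for KO, with -1.04 without the 3 libraries, and from -2.96 to 1.48 for OE against Ctrl. That of Slc25a37 for KO against Ctrl ran from -4.24 to 6.05, with -4.24 without the 3 libraries.

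Samples with the same replicate number correlated at -0.177 to 0.0634 in their deviations from group means, which showed no pairing by number. These correlations cannot decide whether the samples were paired, because the deviations of the KO libraries mirror each other. With a replicate block 3 genes passed for OE against Ctrl, and the member median for OE against KO was 0.19.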
